A study of Homo sapiens with 5 samples.

Results

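The enzymes that write and erase methyl groups on lysines of histone H3, and the Polycomb proteins, were examined in RNA from 2 human cell lines of the pigment lineage. The set holds 43 genes, listed by symbol and sorted by the lysine they act on: 14 for H3K4, 12 for H3K27 and Polycomb, 9 for H3K9, 7 for H3K36 and DOT1L for H3K79. GENCODE 29 gave an identifier that both lines' files list for 42 of them, among 31029 genes listed for both lines. KMT2B, an H3K4 methyltransferase, was not matched and was not analysed here. All 42 passed the filter on low counts and are among the 17975 genes tested.

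The study asked what the chromatin remodeller subunit BPTF does in melanoma cells and melanocytes. 501Mel is a human melanoma line that expresses the melanocyte regulator MITF, and Hermes 3A is an immortal, untransformed human melanocyte line. Cells of both lines were infected with lentivirus carrying a short hairpin RNA against BPTF (shBPTF), selected with puromycin at 3 µg/ml for 5 days, and their rRNA-depleted total RNA was sequenced, giving 2 libraries of 501Mel shBPTF and 3 of Hermes 3A shBPTF. All 5 libraries carried shBPTF and puromycin, and which of the 2 BPTF hairpins named in the methods was sequenced is not stated. No control-hairpin counts were used here, so every difference given is one between the lines after knockdown. What part of it, if any, is an effect of BPTF loss cannot be told. The lines were also kept in different media, since only Hermes 3A received phorbol ester, cholera toxin, stem cell factor and endothelin-1, so line and medium cannot be told apart. The methods state for the knockdown experiments in general that they were repeated, but not that each sequenced library of a line came from its own infection, so p-values measure only the spread between these libraries, which may be technical.

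Methylation of H3K4 and H3K36 marks active promoters and transcribed gene bodies, while H3K27 and H3K9 methylation mark silent chromatin. Each mark is set by SET domain methyltransferases, with DOT1L, which lacks that domain, as the H3K79 exception, and is removed mainly by demethylases of the JmjC family. Polycomb repressive complex 2 (PRC2) is built on EZH1 or EZH2 with EED and SUZ12 and methylates H3K27, and the complex PRC1, which in its canonical form binds that mark through a CBX protein, ubiquitinates histone H2A through RNF2 (RING1B) with BMI1 (PCGF4) or a related partner. In melanocytes and melanoma EZH2 is among the most studied of these enzymes.

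The promoters printed here are a selection that leaves out several members with large differences. They belong to EZH2 and its paralog EZH1, the PRC2 subunit SUZ12, the PRC1 subunits BMI1 and CBX7, and the H3K36 methyltransferase NSD2. Each run is the 250 bases before a RefSeq transcription start on GRCh38.p14, read on the strand of the gene: chr7:148884292-148884541 (minus strand) for EZH2, chr17:42745041-42745290 (minus strand) for EZH1, chr17:31936757-31937006 (plus strand) for SUZ12, chr10:22320849-22321098 (plus strand) for BMI1, chr22:39152681-39152930 (minus strand) for CBX7 and chr4:1871143-1871392 (plus strand) for NSD2. Capitals mark matches, on either strand, to the E2F cores TTCCCGC and TTGGCGC, the E-boxes CACGTG and CATGTG, and CCAAT, whose reverse reads ATTGG.
EZH2: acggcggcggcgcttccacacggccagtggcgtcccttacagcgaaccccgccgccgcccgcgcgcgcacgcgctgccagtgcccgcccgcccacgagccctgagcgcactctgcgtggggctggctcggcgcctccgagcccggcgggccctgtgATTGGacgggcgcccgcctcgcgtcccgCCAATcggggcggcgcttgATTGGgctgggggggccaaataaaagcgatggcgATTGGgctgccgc
EZH1: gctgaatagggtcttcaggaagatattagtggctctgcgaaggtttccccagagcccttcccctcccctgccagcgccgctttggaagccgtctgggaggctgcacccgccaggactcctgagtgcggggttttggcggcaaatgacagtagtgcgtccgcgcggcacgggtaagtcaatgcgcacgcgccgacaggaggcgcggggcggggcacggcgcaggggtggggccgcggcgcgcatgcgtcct
SUZ12: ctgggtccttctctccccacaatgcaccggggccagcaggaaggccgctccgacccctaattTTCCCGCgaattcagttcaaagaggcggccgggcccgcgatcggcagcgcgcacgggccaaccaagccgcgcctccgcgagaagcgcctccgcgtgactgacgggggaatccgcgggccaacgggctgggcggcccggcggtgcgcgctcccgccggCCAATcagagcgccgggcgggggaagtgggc
BMI1: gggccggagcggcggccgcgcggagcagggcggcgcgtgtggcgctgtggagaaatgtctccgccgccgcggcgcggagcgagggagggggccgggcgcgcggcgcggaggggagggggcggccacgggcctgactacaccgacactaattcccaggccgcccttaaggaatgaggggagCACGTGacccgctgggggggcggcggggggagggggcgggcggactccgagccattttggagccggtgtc
CBX7: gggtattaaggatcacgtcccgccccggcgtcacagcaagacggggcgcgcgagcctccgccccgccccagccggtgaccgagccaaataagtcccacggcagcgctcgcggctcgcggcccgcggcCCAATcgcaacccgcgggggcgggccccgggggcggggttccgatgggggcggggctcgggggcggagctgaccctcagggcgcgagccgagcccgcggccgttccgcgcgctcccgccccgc
NSD2: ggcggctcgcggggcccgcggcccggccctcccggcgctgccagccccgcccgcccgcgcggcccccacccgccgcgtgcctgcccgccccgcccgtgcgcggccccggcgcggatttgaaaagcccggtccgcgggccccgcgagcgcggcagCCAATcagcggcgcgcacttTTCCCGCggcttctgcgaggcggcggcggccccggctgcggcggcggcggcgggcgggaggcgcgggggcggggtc

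The motifs were chosen after expression values had been seen, and a match is a description of letters only. The EZH2 promoter held 4 CCAAT matches and the EZH1 promoter held none of the 5 motifs, and the other start of EZH2 and that of BMI1, not printed, held none either. SUZ12 and NSD2 each held 1 CCAAT and 1 TTCCCGC, BMI1 held 1 CACGTG and CBX7 held 1 CCAAT. Of the members with large differences that were not printed, SUV39H2, KDM5B and KDM6B held none of the 5 motifs. JARID2 and SUV39H1 each held 1 CCAAT at 1 of their starts, and CBX2 had no start in the RefSeq table. The RefSeq table gave 54 starts for 36 of the 43 members, 11 of which had several starts, so starts of 1 gene are not independent. CCAAT was found at 20 of the 54 member starts (37%) against 32% of all 35116 promoters, TTCCCGC at 4 (7.41%) against 5.52%, and CACGTG at 9 (16.7%) against 6.34%. TTGGCGC and CATGTG, found in 2.56% and 9.42% of all promoters, matched at 0 member starts. Member promoters were rich in G and C, with a median of 69.4% (range 46% to 92%) against 58% over all promoters.

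The libraries held between 30073071 and 43032311 counts, and 3 counts corresponded to 0.0700 to 0.0999 CPM. CPM are read counts scaled to a common library total, here with edgeR's TMM factors, and they compare a gene between libraries but not genes with each other. In bulk RNA, fewer cells expressing a gene and less RNA per cell cannot be told apart. Hermes 3A replicate 1 stood apart from the other libraries of its line, with a chi-square per gene of 96.1 and 101 against them, while those differed by 21.5 from each other and the 501Mel libraries by 72.9. The melanocyte lineage was present in both lines: summed over 10 markers (MITF, PMEL, TYR and others) it reached 13060 to 20180 CPM in 501Mel and 32440 to 35610 CPM in Hermes 3A, although DCT, at 1034 and 1284 CPM in 501Mel, had only 7.85 to 13.3 CPM in Hermes 3A. Of 8 fibroblast markers 7 were tested and 2, COL1A2 and FAP, were called higher in Hermes 3A (summed CPM 292 to 338 against 4.10 to 18.6), while COL1A1, COL3A1, PDGFRB, LUM, DCN and THY1 stayed at or under 8.08 CPM in every library. Of 8 keratinocyte markers 5 were matched and 2 tested, KRT10 (31.6 to 50.5 CPM) and TP63 (at most 0.614 CPM), both called higher in Hermes 3A, and SFN was at 0 in 4 libraries. Of 6 leukocyte markers 5 were matched and 2 tested, CD68 was called higher in 501Mel (92.2 and 34.0 CPM against at most 0.265 CPM), and PTPRC was at 0 in 4 libraries. The targeted gene BPTF had 63.7 and 57.1 CPM in 501Mel and 48.7, 50.9 and 54.9 CPM in Hermes 3A and did not pass the test (edgeR quasi-likelihood adjusted p = 0.208). The 12 proliferation markers (MKI67, TOP2A, CDK1, MCM2 and others) were all called higher in 501Mel by edgeR, with a median log2 difference of 3.29. Their summed level was 1634 to 2015 CPM in 501Mel against 314, 124 and 201 CPM in Hermes 3A replicates 1, 2 and 3. The paper reports a senescence stain in shBPTF cells of both lines. It also found cell cycle functions enriched among genes lowered by shBPTF, strongly so in Hermes 3A. How far this bears on the gap was not tested.

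EZH2, SUZ12 and BMI1 of Polycomb, SUV39H1, SUV39H2 and NSD2 were higher in the melanoma line, while CBX7 and KDM6B were higher in the melanocytes. By edgeR's quasi-likelihood test with a Benjamini-Hochberg adjusted p of 0.05 over all genes tested, 16 of 42 members were higher in 501Mel, or 38.1% against 24.2% of all genes, and 5 were higher in Hermes 3A, or 11.9% against 24.0%. The remaining 21 members did not pass the test. With the added limit of a 2-fold difference, 9 of 42 members were higher in 501Mel, a share only a little above the 17.2% of all genes. In Hermes 3A 2 of 42 were higher, a share under the 17.1% of all genes. The 9 were EZH2, SUZ12, JARID2, BMI1, CBX2, SUV39H1, SUV39H2, NSD2 and KDM5B, and the 2 were CBX7 and KDM6B. The libraries of the lines did not overlap for 31 of 42 members, beside 69.6% of all genes. The median log2 difference (501Mel minus Hermes 3A) of the members was 0.35, against 0.02 over all genes tested, while the median size of the difference without its sign was smaller in the set, 0.52 against 0.79. The signed median of the members was lower than 0.35 whichever library was left out. The number higher in Hermes 3A fell from 5 to 3 without 501Mel replicate 1 and likewise without 501Mel replicate 2. All 12 proliferation markers were called higher in 501Mel too. The 16 members were picked by that same direction, so the shared direction carries no information on a link. The part of proliferation in the result was not tested. Within Hermes 3A, 6 of these 16 members (RBBP5, SUZ12, SETDB1, SUV39H1, KDM2B and DOT1L) had their highest value in replicate 1, the library with the highest summed proliferation markers. Another 9, EZH2 among them, had their lowest value there, BMI1 only by a near tie with replicate 3 (31.10 against 31.15 CPM). The matching shares over all genes were not computed. Without Hermes 3A replicate 1, 17 members were higher in 501Mel and 7 in Hermes 3A.

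**Figure D1:**
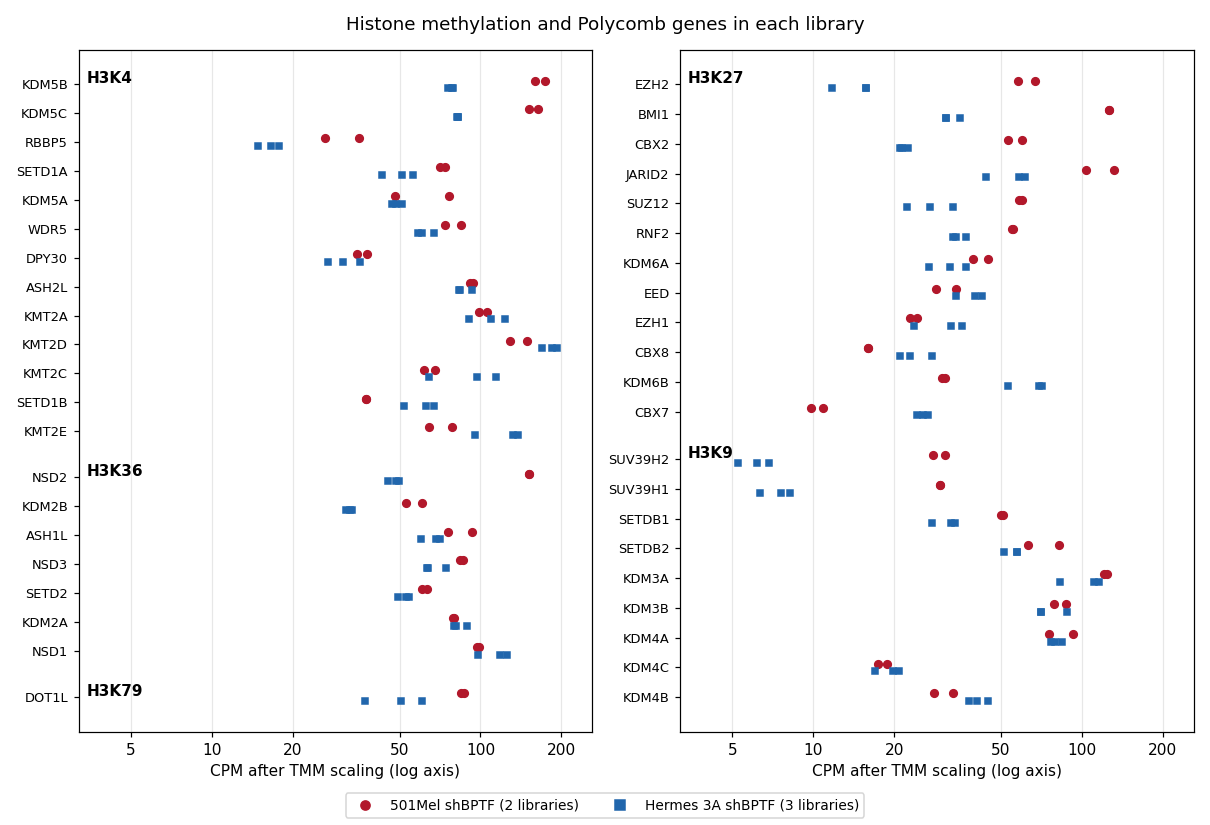
CPM after TMM scaling (log axis) of each of the 42 members in each library, grouped by the H3 lysine and ordered by the difference between lines. Circles are the 2 libraries of 501Mel shBPTF and squares the 3 of Hermes 3A shBPTF. The circles of EZH2, BMI1, SUV39H1, SUV39H2 and NSD2 lie far to the right of their squares, and those of CBX7 and KDM6B lie to the left.

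Of the PRC2 transcripts, EZH2, SUZ12 and JARID2 differed between the lines, while EZH1 and EED did not differ detectably. EZH2 (ENSG00000106462, chromosome 7, 148807383 to 148884321 on GRCh38), which carries most of the H3K27 methyltransferase activity of dividing cells, had 66.9 and 57.8 CPM in 501Mel and 11.7, 15.8 and 15.7 CPM in Hermes 3A. The groups were far apart, and EZH2 was 4.33-fold higher in 501Mel (log2 difference 2.11, SE 0.19, edgeR adjusted p = 0.000225). EZH1, the paralog more common in resting tissue, had 23.0 and 24.4 CPM in 501Mel and 32.5, 35.9 and 23.6 CPM in Hermes 3A. Here the groups overlapped, since Hermes 3A replicate 3 lay between the 501Mel libraries, and the difference of -0.37 (SE 0.22, 95% interval -0.88 to 0.14) did not pass the test (edgeR adjusted p = 0.192).

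SUZ12 (chromosome 17, 31937018 to 32001045), the scaffold of PRC2, had 59.9 and 58.1 CPM in 501Mel and 33.0, 27.2 and 22.4 CPM in Hermes 3A. Every 501Mel library lay above every Hermes 3A library, by 2.14-fold (log2 difference 1.10, SE 0.19, edgeR adjusted p = 0.00323). The pseudogene SUZ12P1 shares 9.68% of the 50-base stretches of the longest SUZ12 transcript, so a part of these reads could belong to either gene. JARID2 (chromosome 6, 15246296 to 15522040), which helps PRC2 onto chromatin, had 132 and 104 CPM in 501Mel and 43.9, 58.1 and 61.5 CPM in Hermes 3A. The groups did not overlap, with a 2.16-fold difference (log2 1.11, SE 0.19, edgeR adjusted p = 0.00301). EED, the subunit that reads the mark PRC2 makes, went the other way in its means, with 28.7 and 34.0 CPM in 501Mel and 42.4, 40.1 and 34.1 CPM in Hermes 3A. The nearest libraries were almost equal and the difference of -0.31 (95% interval -0.72 to 0.10) did not pass (edgeR adjusted p = 0.177).

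PRC1 members were divided, with BMI1, CBX2 and RNF2 higher in 501Mel and CBX7 and CBX8 higher in Hermes 3A. BMI1 (chromosome 10, 22321211 to 22331484), the PRC1 subunit known as a repressor of the CDKN2A locus, had 126 CPM in both 501Mel libraries and 31.1, 35.1 and 31.1 CPM in Hermes 3A. The lines were far apart beside a narrow spread within each, a 3.89-fold difference (log2 1.96, SE 0.13, edgeR adjusted p = 7.26e-05). The read-through gene COMMD3-BMI1 shares 28.2% of the 50-base stretches of the longest BMI1 transcript, so BMI1 reads could not be fully told apart from it. RNF2, the E3 ligase of PRC1, had 54.7 and 55.4 CPM in 501Mel and 33.0, 37.2 and 33.9 CPM in Hermes 3A, without overlap (log2 0.66, SE 0.14, edgeR adjusted p = 0.00731).

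CBX proteins give canonical PRC1 its reader of H3K27 methylation, while variant PRC1 carries RYBP or YAF2 in place of a CBX protein. CBX2 (chromosome 17, 79778132 to 79787983) had 59.7 and 53.2 CPM in 501Mel and 21.0, 21.4 and 22.4 CPM in Hermes 3A. It was 2.61-fold higher in 501Mel without overlap (log2 1.39, SE 0.15, edgeR adjusted p = 0.000441). CBX7 (chromosome 22, 39120167 to 39152674) had 9.79 and 10.9 CPM in 501Mel and 25.5, 24.2 and 26.8 CPM in Hermes 3A, the reverse order. It was 2.47-fold higher in Hermes 3A (log2 difference -1.30, SE 0.19, edgeR adjusted p = 0.00149), and 17.9% of its exonic bases overlap genes on the other strand, whose reads cannot be told apart where counting ignores strand. CBX8 (chromosome 17, 79792132 to 79801683), the neighbour of CBX2 on the opposite strand, had 16.0 CPM in both 501Mel libraries and 27.6, 23.0 and 21.0 CPM in Hermes 3A. Its groups did not overlap, but the call was at the threshold (log2 -0.58, SE 0.20, edgeR adjusted p = 0.0452) and was lost when any 1 of the 5 libraries was left out, with adjusted p from 0.0553 to 0.138.

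Of the H3K27 demethylases, KDM6B passed the test and KDM6A did not. KDM6B (JMJD3; chromosome 17, 7839904 to 7854796), an inducible demethylase, had 30.3 and 30.9 CPM in 501Mel and 53.2, 70.7 and 69.2 CPM in Hermes 3A. It was 2.10-fold higher in Hermes 3A without overlap (log2 difference -1.07, SE 0.18, edgeR adjusted p = 0.00256). KDM6A (UTX), its X-linked paralog, had 39.4 and 44.6 CPM in 501Mel and 26.9, 32.3 and 37.0 CPM in Hermes 3A. The groups lay close to each other without overlap, and the difference of 0.39 (95% interval -0.04 to 0.82) did not pass (edgeR adjusted p = 0.116). Over the 12 H3K27 and Polycomb members, 6 were called higher in 501Mel, 50% beside 24.2% of all genes, and 3 in Hermes 3A, 25% beside 24.0%, with a median log2 difference of 0.53 (0.02 over all genes).

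In paralog sets the balance between members also differed by library. The count ratio of EZH2 to EZH1 was 2.91 and 2.37 in 501Mel and 0.362, 0.439 and 0.666 in Hermes 3A. The geometric means of these ratios, used for each such fold here, were 5.55-fold apart. The ratio of CBX2 to CBX7 was 6.10 and 4.87 in 501Mel and 0.822, 0.882 and 0.837 in Hermes 3A, 6.44-fold apart, and that of CBX2 to CBX8 was 3.72 and 3.33 against 0.760, 0.931 and 1.07, 3.86-fold apart. These ratios of raw counts, which need no scaling between libraries, separated the lines in every library. The ratio of KDM6A to KDM6B was 1.30 and 1.44 in 501Mel and 0.506, 0.457 and 0.534 in Hermes 3A. The ratio of SETD1A to SETD1B was 1.97 and 1.88 in 501Mel and 0.829, 0.835 and 0.819 in Hermes 3A. That of SUV39H1 to SUV39H2 was 0.961 and 1.06 in 501Mel and 1.55, 1.11 and 1.03 in Hermes 3A, so the groups overlapped, and both genes were called higher in 501Mel. These are descriptions without a test.

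Which paralog was more abundant within a line could be asked only per length. With the union of all exons as the length, EZH2 made up 81.8% and 78.5% of the summed EZH1 and EZH2 level per kilobase (RPKM) in 501Mel and 35.9%, 40.4% and 50.7% in Hermes 3A. With the median transcript length the shares were 51.7% and 46.6% against 11.8%, 13.9% and 19.7%. This median is taken over all annotated transcripts of a gene, short ones included. It was 2499.5 bases for EZH2 and 920.5 for EZH1, whose longest transcripts have 3641 and 4623 bases. Shares by longest transcript were not computed. The EZH2 share was larger in 501Mel under both lengths. Within 501Mel EZH2 led by union length, while by median transcript length the pair was near equal. CBX2 took 67.0% and 63.8% of the summed level of CBX2, CBX7 and CBX8 in 501Mel and 26.9%, 30.0% and 31.4% in Hermes 3A by union length. By median transcript length it took 61.2% and 57.5% against 21.3%, 23.7% and 24.4%, so CBX2 led in 501Mel under both lengths. In Hermes 3A CBX2 had the smallest share by median transcript length and CBX7 by union length.

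**Figure D2:**
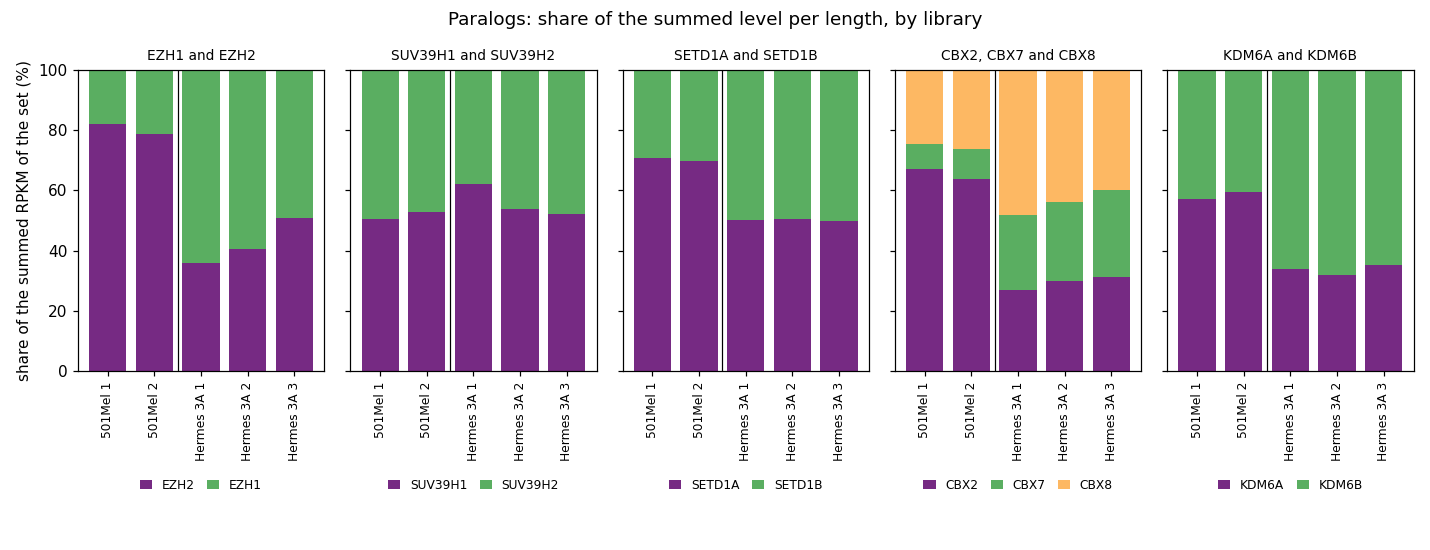
Share of each paralog in the summed RPKM of its set (percent, union exon length) in each library, with the 2 libraries of 501Mel to the left of the line and the 3 of Hermes 3A to its right. EZH2, SETD1A, CBX2 and KDM6A hold larger shares in 501Mel, while SUV39H1 and SUV39H2 keep shares between 37.8% and 62.2% in all libraries.

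Of the 9 H3K9 members 3 were called higher in 501Mel, 33.3% beside 24.2% of all genes, all 3 among the 4 methyltransferases (75%). By edgeR 0 of the 9 were called higher in Hermes 3A, beside 24.0% of all genes. Of the 5 H3K9 demethylases 0 were called in either direction by edgeR, with 1, KDM4B, at an unadjusted p under 0.05 and called by DESeq2. With only 5 genes, a count of 0 cannot be told from those shares of all genes. SUV39H2 (chromosome 10, 14878820 to 14904315) had 30.9 and 27.9 CPM in 501Mel and 5.27, 6.87 and 6.18 CPM in Hermes 3A. It was 4.81-fold higher in 501Mel, the largest difference of the set (log2 2.27, SE 0.21, edgeR adjusted p = 0.000249). SUV39H1 (chromosome X, 48695554 to 48709012), which with SUV39H2 trimethylates H3K9 in constitutive heterochromatin, had 29.7 and 29.6 CPM in 501Mel and 8.18, 7.59 and 6.34 CPM in Hermes 3A. It was 4.02-fold higher in 501Mel, again far beyond the spread within the lines (log2 2.01, SE 0.20, edgeR adjusted p = 0.000343). An antisense gene covers 20.3% of the SUV39H1 exonic bases but had at most 0.0675 CPM in any library.

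SETDB1, which sets H3K9 trimethylation at transposable elements and at targets of zinc finger repressors, had 50.6 and 49.9 CPM in 501Mel and 33.8, 32.6 and 27.7 CPM in Hermes 3A. The groups did not overlap (log2 0.68, SE 0.15, edgeR adjusted p = 0.00983), but the call was lost without Hermes 3A replicate 3 (log2 0.56, adjusted p = 0.0524). CERS2, whose exons overlap 13.4% of SETDB1 on the other strand, had 144 to 169 CPM, with overlapping lines. SETDB2, a paralog of SETDB1, had 63.1 and 81.8 CPM against 57.5, 57.3 and 51.4 CPM and did not pass (log2 0.39, edgeR adjusted p = 0.0809). The demethylases KDM3A, KDM3B, KDM4A, KDM4B and KDM4C, which act on H3K9 and, for the KDM4 enzymes, also on H3K36, had log2 differences from -0.43 to 0.25. The KDM4B difference of -0.43 (95% interval -0.81 to -0.04), came from 28.3 and 33.0 CPM in 501Mel and 38.1, 40.7 and 44.7 CPM in Hermes 3A (edgeR adjusted p = 0.0644). KDM4A shares 44.8% of its 50-base stretches with an overlapping gene model, so its value is uncertain.

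Among the H3K36 enzymes, NSD2 and KDM2B were called higher in 501Mel and 0 of 7 were higher in Hermes 3A by edgeR, by DESeq2 or at an unadjusted p under 0.05. The 2 of 7 higher in 501Mel, 28.6%, were near the 24.2% of all genes. The 0 of 7 higher in Hermes 3A stood beside 24.0% of all genes, and 7 genes are too few to tell these apart. NSD2 (chromosome 4, 1871424 to 1982207), the H3K36 dimethyltransferase that is overexpressed in a subset of multiple myelomas, had 152 and 151 CPM in 501Mel and 48.6, 45.2 and 49.8 CPM in Hermes 3A. It was 3.16-fold higher in 501Mel with hardly any spread within the lines (log2 1.66, SE 0.13, edgeR adjusted p = 0.000117). NSD1 had 96.7 and 98.5 CPM in 501Mel and 119, 97.6 and 125 CPM in Hermes 3A, overlapping groups, and NSD3 had 86.3 and 84.2 CPM against 63.4, 63.8 and 74.7 CPM. Neither NSD1 nor NSD3 passed (log2 -0.22 and 0.34, edgeR adjusted p = 0.262 and 0.0766). SETD2, which trimethylates H3K36 behind elongating RNA polymerase II, and ASH1L did not pass either, at log2 differences of 0.25 and 0.35.

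KDM2B (chromosome 12, 121429097 to 121581015), an H3K36 demethylase whose CXXC domain also brings a variant PRC1 to CpG islands, had 60.6 and 52.7 CPM in 501Mel and 33.4, 31.6 and 32.7 CPM in Hermes 3A. It was 1.74-fold higher in 501Mel without overlap (log2 0.80, SE 0.14, edgeR adjusted p = 0.00381). Its paralog KDM2A had 78.8 and 79.7 CPM against 79.6, 89.2 and 80.8 CPM and did not pass (log2 -0.07, 95% interval -0.38 to 0.23). DOT1L (chromosome 19, 2164149 to 2232578), the H3K79 methyltransferase, had 84.9 and 87.1 CPM in 501Mel and 60.4, 50.5 and 37.1 CPM in Hermes 3A, where it spread most. It was called higher in 501Mel (log2 0.80, SE 0.21, edgeR adjusted p = 0.016), a call lost without 501Mel replicate 1 (log2 0.82, adjusted p = 0.0619), without 501Mel replicate 2 (0.77, 0.0696) or without Hermes 3A replicate 2 (0.76, 0.0563).

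Of the 13 H3K4 members tested, 4 were called higher in 501Mel and 2 in Hermes 3A, or 30.8% and 15.4%, near the 24.2% and 24.0% of all genes, and the calls included 2 of the 3 demethylases. KDM5B (JARID1B; chromosome 1, 202724495 to 202809470), the H3K4 demethylase described in slowly cycling melanoma cells, had 173 and 159.6 CPM in 501Mel and 75.4, 79.3 and 78.6 CPM in Hermes 3A. It was 2.14-fold higher in 501Mel, with no overlap (log2 1.10, SE 0.12, edgeR adjusted p = 0.000559). KDM5C, the X-linked member of the same family, had 152 and 163 CPM in 501Mel and 81.8, 82.4 and 82.8 CPM in Hermes 3A. Its 1.91-fold difference was just under the 2-fold limit (log2 0.94, SE 0.12, edgeR adjusted p = 0.000999). KDM5A had 76.3 and 48.3 CPM in 501Mel and 46.8, 48.5 and 51.1 CPM in Hermes 3A. Only 501Mel replicate 1 stood apart, and the log2 difference of 0.35 (edgeR adjusted p = 0.191) became -0.02 without that library and 0.63 (adjusted p = 0.0317) without 501Mel replicate 2.

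Of the 6 H3K4 methyltransferases tested, 1 was called higher in 501Mel and 2 in Hermes 3A, or 16.7% and 33.3%, beside 24.2% and 24.0% of all genes. SETD1A, which makes most H3K4 trimethylation together with SETD1B, had 74.1 and 70.5 CPM in 501Mel and 43.1, 55.9 and 51.2 CPM in Hermes 3A (log2 0.53, SE 0.15, edgeR adjusted p = 0.0257). SETD1B had 37.6 and 37.5 CPM in 501Mel and 52.0, 66.9 and 62.5 CPM in Hermes 3A (log2 -0.69, SE 0.16, edgeR adjusted p = 0.011). The paralogs thus lay in opposite order between the lines, each without overlap. The SETD1A call was lost without Hermes 3A replicate 2 (log2 0.57, adjusted p = 0.0502), Hermes 3A replicate 3 (0.50, 0.0815) or 501Mel replicate 1 (0.49, 0.112) or 2 (0.55, 0.079), and the SETD1B call without 501Mel replicate 1 (-0.69, 0.0531). KMT2E (MLL5), a family member with no settled methyltransferase activity, had 78.1 and 64.3 CPM in 501Mel and 95.8, 132 and 138 CPM in Hermes 3A (log2 -0.78, SE 0.20, edgeR adjusted p = 0.0155), a call lost without 501Mel replicate 2 (-0.66, 0.0871). Single values of SETD1A, SETD1B, KMT2C, KMT2D, KMT2E, KDM5A, RNF2, SETDB2, KDM4B, NSD1, NSD3 and KDM2A were chosen for printing after they had been seen.

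KMT2A (MLL1), KMT2C and KMT2D, the last of which with KMT2C sets H3K4 monomethylation at enhancers, had log2 differences of -0.07, -0.50 and -0.39 and did not pass (edgeR adjusted p = 0.736, 0.12 and 0.0539). KMT2D had 149 and 129 CPM in 501Mel and 169.9, 184 and 193 CPM in Hermes 3A without overlap. KMT2C had 67.6 and 61.8 CPM in 501Mel and 64.5, 96.7 and 114 CPM in Hermes 3A, where replicate 1 lay apart, and without that library both KMT2C (log2 -0.72, adjusted p = 0.00738) and KMT2D (-0.46, 0.0286) were called higher in Hermes 3A. Of the core subunits that all KMT2 complexes share, RBBP5 alone passed the test, with 35.2 and 26.4 CPM in 501Mel and 17.9, 16.6 and 14.9 CPM in Hermes 3A (log2 0.90, SE 0.20, edgeR adjusted p = 0.00861). That call was lost without 501Mel replicate 1 (log2 0.68, adjusted p = 0.0698). WDR5, ASH2L and DPY30 had log2 differences of 0.35, 0.09 and 0.22 and did not pass (edgeR adjusted p = 0.074, 0.576 and 0.32). WDR5 did not overlap between the lines, while ASH2L and DPY30 did, and DPY30 shares 91% of its 50-base stretches with MEMO1 and other genes.

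Levels per kilobase of union exon placed the set above the middle of all genes. The median of the 42 members was 7.36 RPKM in 501Mel and 5.07 RPKM in Hermes 3A, against 3.17 and 3.12 RPKM over 17368 genes with a length. Members ran from 1.39 to 29.5 RPKM in 501Mel and from 1.71 to 17.1 RPKM in Hermes 3A. BMI1 had the highest level in 501Mel (29.5 RPKM ± 0.02, SD, n = 2) and was 15th in Hermes 3A (7.58 ± 0.54, n = 3), where WDR5 was highest (17.1 ± 1.24). In 501Mel WDR5 was next after BMI1 (21.8 ± 2.18), ahead of JARID2 (19.6 ± 3.26) by less than the SD of JARID2. SUV39H2 was the lowest member in Hermes 3A (1.71 ± 0.23) and 17th in 501Mel (8.25 ± 0.59), and CBX7 was the lowest in 501Mel (1.39 ± 0.11) and 34th in Hermes 3A (3.42 ± 0.17). EZH2 was 7th in 501Mel (13.8 ± 1.42) and 35th in Hermes 3A (3.19 ± 0.51). Ranks within a line rest on the length used, since BMI1 was 1st in 501Mel also by median transcript length but EZH2 was then 28th.

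**Figure D3:**
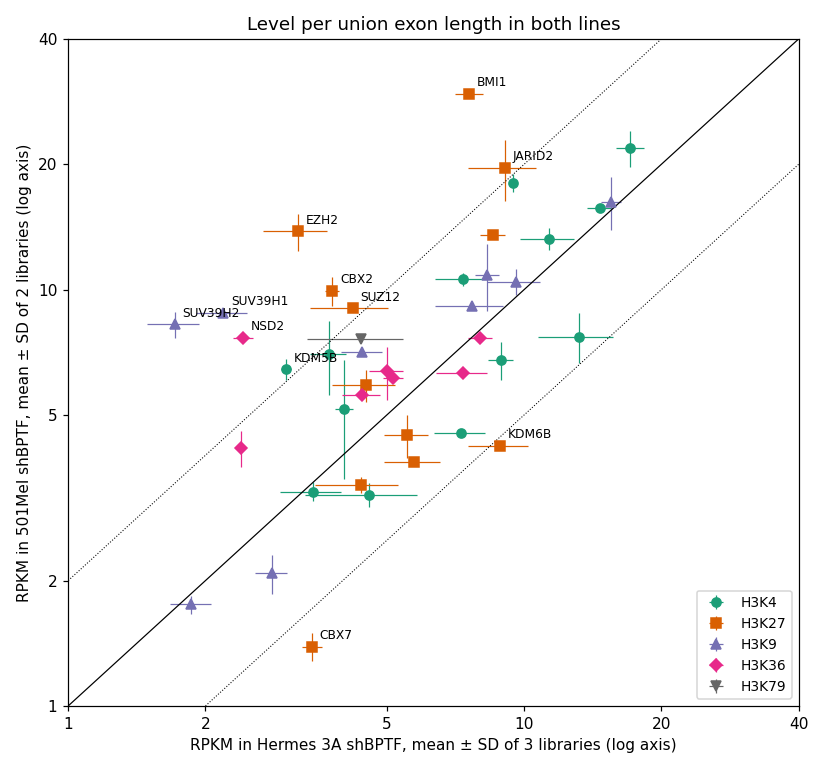
Mean RPKM per union exon length of each member in 501Mel shBPTF (vertical, 2 libraries) against Hermes 3A shBPTF (horizontal, 3 libraries), both on log axes with SD bars, coloured by H3 lysine. The solid line marks equal levels and the dotted lines a 2-fold difference, and the named points are the 11 members called at 2-fold or more.

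Related genes outside the set, from lists of the same pathways, are given for comparison. Of 25 other Polycomb and H3K27 genes tested, 10 were called higher in 501Mel, 40% beside 24.2% of all genes, and 3 in Hermes 3A, 12% beside 24.0% (median log2 difference 0.53). SCML1, a Polycomb homolog, had 38.0 CPM in both 501Mel libraries and 5.19 to 6.22 CPM in Hermes 3A (log2 2.76, edgeR adjusted p = 7.69e-05). MTF2, which brings PRC2 to CpG islands, had 77.8 and 73.6 CPM against 19.8 to 23.6 CPM (log2 1.82, edgeR adjusted p = 0.000149). RBBP7, a histone chaperone of PRC2, had 307 and 356 CPM against 90.5 to 128 CPM (log2 1.61, edgeR adjusted p = 0.000508). It is not particular to PRC2, since the paper also names RBBP7 in its description of NURF, the complex that holds BPTF.

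Of 13 other H3K4 genes tested, 6 were higher in 501Mel (46.2%, beside 24.2% of all genes) and 1 in Hermes 3A (7.69%, beside 24.0%), led by the chromatin reader PSIP1 (log2 1.89, edgeR adjusted p = 0.000101) and the demethylases KDM1A (LSD1; 1.57, 0.000543) and KDM1B (1.48, 0.00314). Of 16 other H3K9 genes, 4 were higher in 501Mel, 25% and so near the 24.2% of all genes, and 0 in Hermes 3A by edgeR's test, with 1 lower at an unadjusted p under 0.05 and 1 called lower by DESeq2. They were led by CBX3 (HP1 gamma), which binds methylated H3K9, with 309.5 and 316 CPM against 125 to 144 CPM (log2 1.23, edgeR adjusted p = 0.000458). The H3K9 demethylase PHF8 followed at 1.01 (edgeR adjusted p = 0.00112). The 11 other H3K36 and H3K79 genes were evenly divided, with 4 higher in each line (36.4%, beside 24.2% and 24.0% of all genes), led by MLLT1 (1.05, edgeR adjusted p = 0.00513) and AFF1 (-1.03, 0.00103). Of 6 H4K20 genes, 2 were higher in 501Mel and 1 in Hermes 3A, or 33.3% and 16.7%, beside 24.2% and 24.0% of all genes.

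**Figure D4:**
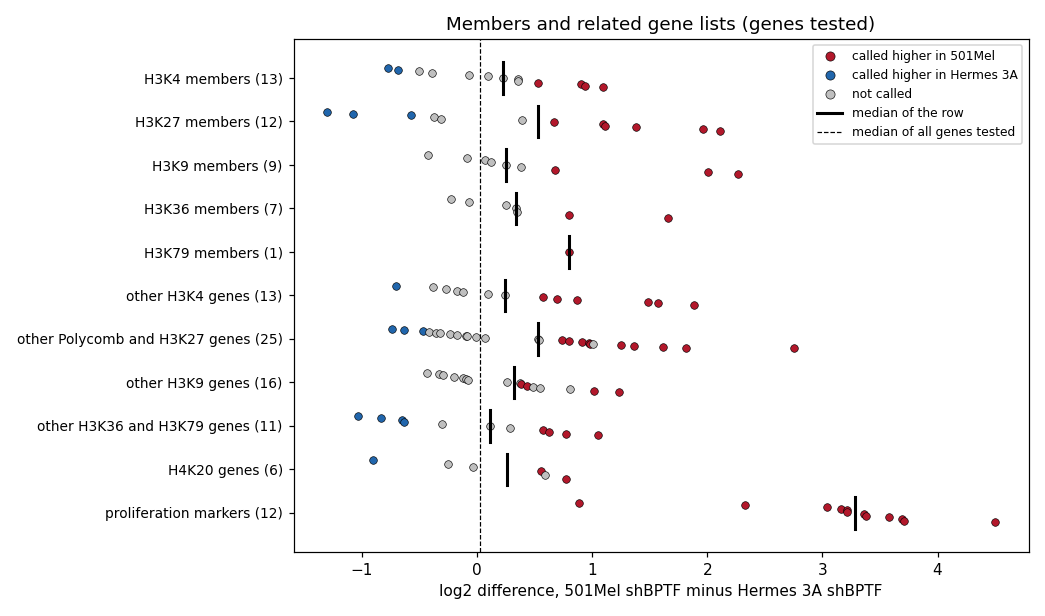
Log2 difference (501Mel minus Hermes 3A) of every gene tested, for the members by H3 lysine, the related lists and the 12 proliferation markers, with the number of genes in brackets. Short bars mark the median of a row and the dashed line that of all genes (0.02). The proliferation markers lie furthest to the right (median 3.29), and H3K27 members spread to both sides.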

How the data were processed

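RNA was sequenced after rRNA depletion and duplex-specific nuclease normalization, which lowers the most abundant sequences. The authors deposited read counts per Ensembl gene, as whole numbers without normalization, 1 file for each of the 5 libraries. The submitters' processing notes name CASAVA 1.8, TopHat 1.4.1, Bowtie 0.12.7 and hg19, while the counting program, annotation release and strand setting are not given in the sources used here. The lines' files list 37259 and 34033 genes, of which the 31029 in both were joined, since genes of 1 line only held 0.0938% to 0.712% of a library. Names, lengths and gene coordinates are those of GENCODE 29 (GRCh38), not the authors' build.

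Counts were compared between lines with edgeR 4.0.16 (TMM, filterByExpr, quasi-likelihood test, no covariate) in R 4.3.3 across 17975 genes, with Benjamini-Hochberg adjustment over all of them, a call at 0.05 and, for the stricter rule, an absolute log2 difference of 1. The common biological coefficient of variation was 0.269. TMM factors ran from 0.940 to 1.04. RPKM are TMM-scaled CPM per kilobase. Intervals are 95%, and the floor of 3 counts covers counting error only. Replicates of a line were compared by a chi-square of their counts divided by the number of genes (21.5 to 101, where counting noise alone gives about 1), so no library was taken as deposited a second time. This does not tell separate cultures from separate library preparations. Members called at 2-fold, the 3 largest calls of each mark, PRC2 and the CBX genes were given in full, and related lists by counts and up to 3 leading genes. Members and lists were chosen with earlier results of these data known.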

Additional observations from a re-analysis of the deposited data

How the results depend on the processing

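Values were recomputed with RLE or upper quartile factors, library totals, no filter, at least 10 counts in every library, DESeq2 1.42.0, a replicate block, each library left out and, as an alternative chosen after seeing the data, genes of either line with absent genes as 0. Of 546 member values 510 kept their direction and call, and 14 of the 21 called members kept theirs under all of these. The number of members higher in 501Mel ranged from 14 to 17 and that higher in Hermes 3A from 3 to 7 when a library was left out, with 8 to 10 and 2 at 2-fold and a median log2 difference of 0.235 to 0.295. This whole range lay under the median of 0.346 in the main fit. All genes called with a library left out ranged from 6059 to 9282. With library totals only the median was 0.414, 19 members were higher in 501Mel, and the CBX8 call was lost (log2 -0.503). It was also lost without the filter (-0.614) and with at least 10 counts (-0.540). DESeq2 called 7 members higher in Hermes 3A, adding KMT2D and KDM4B. With a library left out, KDM4A ranged from -0.103 (without 501Mel replicate 2) to 0.204 and KDM5A from -0.017 (without 501Mel replicate 1) to 0.631. The cause was not tested. With median transcript length the median level was 55.4 RPKM in 501Mel and 43 in Hermes 3A in place of 7.36 and 5.07, because these lengths are shorter.

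The lines share replicate numbers, but nothing says that these mark a shared day, and the deviations of same-numbered libraries correlated at 0.105 and 0.121 over only 2 pairs. With the replicate block 15 members were higher in 501Mel and 4 in Hermes 3A, 8 and 2 at 2-fold, with a median of 0.337 and 7461 genes called in all. SETD1A (0.557) and CBX8 (-0.654) then lost their calls and KMT2A turned to 0.040. With 2 and 3 libraries, small differences such as those of WDR5, KMT2D and SETDB2 were near the threshold and were called under some settings.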
